A study of Mus musculus with 15 samples.

Results

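Mammospheres treated with PHA were set directly against mammospheres treated with ICG, to find which groups of genes separate the 2 inhibitors. The comparison used 6 of the 15 Affymetrix mouse arrays of the series, 3 with each inhibitor, chosen by their sample titles, and covered all 18193 genes measured. Mammospheres are spheres that mammary cells form when they are kept from attaching to the dish. These were grown from primary tumours of the mammary gland of FVB/N mice, and every group carries the genotype written WAPCre-DNbcatn;HGF. By general knowledge, WAP stands for the whey acidic protein gene, whose promoter drives Cre in milk-secreting epithelium, and HGF is the growth factor that binds MET. After 7 days of growth the cultures received PHA, ICG or the vehicle DMSO for 24 h, and 250 ng of RNA went onto each array. The 3 DMSO arrays of the same set are shown beside both inhibitors. The other 6 arrays, DMSO and PHA+ICG, form a second set. They helped to choose the probe set of each gene and entered only an alternative fit to all 15 arrays, given where it changed a count or a call. Doses, ages and the full names of the inhibitors are not in the labels. The labels also do not say whether replicates were separate mice or cultures, so the p-values rest on a spread among arrays that could be purely technical.

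The series describes the compounds as inhibitors of the MET and Wnt pathways. MET is a receptor tyrosine kinase that signals through the RAS and ERK cascade and the PI3K pathway when it binds HGF, a factor secreted mainly by stromal cells. In the Wnt pathway, β-catenin escapes degradation, enters the nucleus and switches on target genes together with TCF/LEF factors and co-activators. From general knowledge and not from any label, PHA names a MET kinase inhibitor and ICG a compound that blocks transcription driven by β-catenin.

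Of the 18193 genes, 4939 (27.1%) differed between PHA and ICG (limma, Benjamini-Hochberg adjusted p under 0.05). They divided into 2497 genes higher with PHA (13.7%) and 2442 lower (13.4%). All differences below are PHA minus ICG on the log2 scale unless another pair is named, so that 1 is 2-fold and a negative value means a higher level with ICG. Values after ± are the SE of the fit, with n = 3 arrays in each group, and the number of arrays limits their precision. At least a 2-fold difference separated 211 genes that were higher with PHA and 148 that were lower, and the median size of a called difference was 0.39. Against DMSO, ICG changed 4896 genes (26.9%), 2162 up (11.9%) and 2734 down (15%). PHA changed 1858 (10.2%), 572 up (3.14%) and 1286 down (7.07%). List counts against DMSO below are to be read beside these shares. Both comparisons share the DMSO arrays, so their values are given side by side and no agreement between them is read. Their split moved with the scaling: with each array centred on its median PHA raised 1188 and lowered 938 genes, and ICG raised 3447 and lowered 2134. After quantile normalization the same splits were 902 and 1103 genes with PHA, and 2692 and 2448 with ICG. The split between PHA and ICG themselves was 2379 and 2487 with centring and 2534 and 2538 after quantile normalization. A fit to all 15 arrays, whose second set spread 2.22 times as much, called 1463 genes between PHA and ICG. Of the 18193 genes, that fit had 793 higher and 670 lower with PHA, so its list counts have a lower background than 27.1%. In the fit to the first set, leaving out 1 of the DMSO or PHA arrays moved the count of PHA against DMSO most, to 1062 without DMSO replicate 2, 1210 without DMSO replicate 3, 1087 without PHA replicate 1 and 1005 without PHA replicate 2.

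The median level of the 9 arrays lay between 6.90 and 7.01. The gap between the 3′ and 5′ β-actin control probes, a sign of RNA quality, was 0.49 to 0.60 with PHA, 0.55 to 0.68 with ICG and 0.34 to 0.58 with DMSO, and overlapped between PHA and ICG. The same gap for GAPDH did not overlap, at 0.12, 0.06 and 0.13 with PHA against 0.22, 0.14 and 0.22 with ICG, and 0.07 to 0.16 with DMSO. The part of RNA quality in the results was not tested. DMSO replicate 1 stood low in dividing-cell and stromal genes, which bears on the values against DMSO and only through the spread on PHA against ICG. The epithelial keratin genes Krt8 (9.32 to 9.89) and Krt14 (10.32 to 11.22) read above the median level on all 9 arrays. So did the macrophage gene Mrc1 (7.68 to 11.07). In such bulk RNA, fewer cells of a type and less RNA per cell cannot be told apart.

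**Figure D1:**
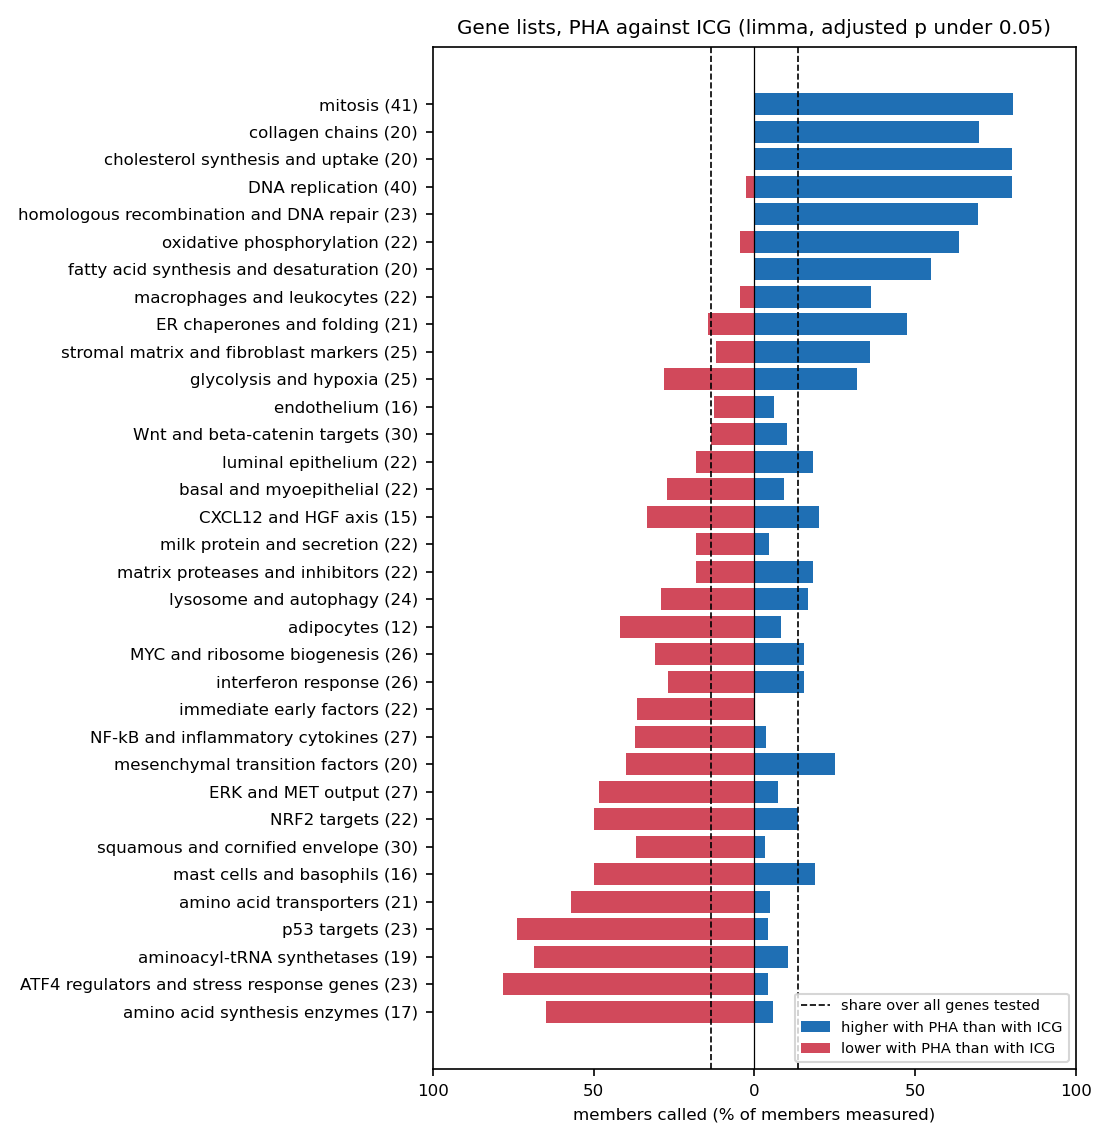
Share of each gene list called between PHA and ICG. Bars to the right give the percentage of measured members higher with PHA and bars to the left the percentage lower, the number in brackets is the number of members measured, and dashed lines mark the shares over all 18193 genes (13.7% and 13.4%). Mitosis, cholesterol and collagen lists had called members on the right side alone (33 of 41, 16 of 20 and 14 of 20), and the lists of ATF4 and amino acid genes lay almost wholly on the left.

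Of the 34 lists, the enzymes that make amino acids had the widest median difference. ICG raised many of the genes that make, import and charge amino acids, and PHA raised none of them. In this pathway, a shortage of amino acids or stress in the endoplasmic reticulum leads cells to translate the transcription factor ATF4. ATF4 then switches on enzymes of serine, asparagine and cysteine synthesis, amino acid transporters and tRNA synthetases, often through a composite element, the C/EBP-ATF response element. The promoters of 3 of the most separated genes are shown because they hold this element in its TGATGNAA form. They cover 300 bases from RefSeq on GRCm38.p6, read 5′ to 3′ on the gene's strand and ending 50 bases past the start site (a 250-base lead), with the matching letters or their reverse complement in capitals. The Chac1 window is chr2:119350992-119351291 on the plus strand, the Asns window chr6:7693160-7693459 on the minus strand, and the Trib3 window chr2:152344011-152344310 on the minus strand.
Chac1: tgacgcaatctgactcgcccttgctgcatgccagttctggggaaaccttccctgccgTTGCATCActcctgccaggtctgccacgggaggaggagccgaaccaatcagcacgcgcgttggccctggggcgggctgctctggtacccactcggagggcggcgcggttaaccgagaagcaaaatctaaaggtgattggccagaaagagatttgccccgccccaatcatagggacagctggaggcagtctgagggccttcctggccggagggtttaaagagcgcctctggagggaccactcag
Asns: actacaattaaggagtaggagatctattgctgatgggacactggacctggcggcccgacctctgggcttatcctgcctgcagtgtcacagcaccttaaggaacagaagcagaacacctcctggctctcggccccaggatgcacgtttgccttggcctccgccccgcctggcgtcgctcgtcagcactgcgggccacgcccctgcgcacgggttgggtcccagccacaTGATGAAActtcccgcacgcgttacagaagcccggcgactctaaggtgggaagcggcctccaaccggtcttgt
Trib3: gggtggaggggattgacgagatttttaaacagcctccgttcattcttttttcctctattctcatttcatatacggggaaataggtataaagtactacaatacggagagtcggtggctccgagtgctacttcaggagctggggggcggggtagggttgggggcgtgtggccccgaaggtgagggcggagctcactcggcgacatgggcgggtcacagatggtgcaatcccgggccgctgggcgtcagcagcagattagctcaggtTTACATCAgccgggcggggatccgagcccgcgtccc
Counted from the start site, the match begins at position −193 in Chac1, −23 in Asns and 15 in Trib3. On either strand TGATGNAA was in 8 of 28 windows of the ATF4 list (28.6%), 5 of 12 of the tRNA synthetases (41.7%), 4 of 22 of the amino acid transporters (18.2%) and 2 of 17 of the amino acid synthesis enzymes (11.8%). It was in 1304 of all 32851 promoter windows (3.97%). A match describes the letters and is not evidence of a bound factor.

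Of 17 amino acid synthesis enzymes measured, 11 were lower with PHA than with ICG and 1, the ornithine aminotransferase gene Oat, was higher. Their median difference was −1.54 against 0.00 over all genes. Cth, which makes cysteine from cystathionine, gave the largest difference of any gene. It read 6.75, 6.55 and 6.60 on the DMSO arrays, 5.77, 5.53 and 6.19 with PHA, and 9.89 to 10.03 with ICG. The ICG arrays stood far above the rest and the PHA arrays below DMSO, a difference of −4.14 ± 0.14 or 17.7-fold (adjusted p = 2.16e-07). Against DMSO, Cth fell by 0.80 with PHA and rose by 3.34 with ICG. Phgdh, the first enzyme of serine synthesis, read 8.83 to 8.98 with DMSO, 7.98, 7.91 and 7.93 with PHA and 10.98, 10.69 and 10.77 with ICG. The 3 groups did not overlap, and PHA and ICG differed by −2.87 ± 0.08 (adjusted p = 8.36e-08). The next enzyme, encoded by Psat1, differed by −2.54 ± 0.07 and asparagine synthetase, encoded by Asns, by −2.34 ± 0.08. With PHA these last genes read close to DMSO (Psat1 −0.21 and Asns −0.16, neither called), and with ICG they rose by 2.33 and 2.18. The mitochondrial folate enzymes encoded by Mthfd2 and Aldh1l2, which pass on the carbon taken from serine, differed by −1.81 and −1.75. Against DMSO, 11 enzymes rose and 1 fell with ICG, and none rose and 5 fell with PHA.

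Transport followed the same division, with 12 of 21 amino acid transporters lower with PHA, 1 higher (none without PHA replicate 2, PHA replicate 3, ICG replicate 1 or ICG replicate 2) and a median of −0.43. Slc7a3, a carrier of cationic amino acids, read 6.13, 6.31 and 6.11 with PHA against 9.07, 9.06 and 8.90 with ICG, while DMSO lay at 6.27, 6.23 and 5.70. The PHA arrays thus sat among the DMSO arrays and the ICG arrays far above both (−2.83 ± 0.14). The related carrier gene Slc7a1 differed by −2.26 ± 0.08. The large neutral amino acid transporter is built from the products of Slc7a5 and Slc3a2, whose differences were −2.02 ± 0.08 and −1.04 ± 0.08. Slc7a11, the cystine carrier, differed by −0.94 ± 0.12, mostly through a fall of 0.63 with PHA, as its rise of 0.31 with ICG was not called. Among the enzymes that load amino acids on tRNA, 13 of 19 were lower with PHA and 2 higher (1 without PHA replicate 1, PHA replicate 3, ICG replicate 2 or ICG replicate 3), with a median of −0.70. Aars, for alanine, differed by −1.37 ± 0.07, Nars, for asparagine, by −1.32 ± 0.06 and Wars, for tryptophan, by −1.13 ± 0.07.

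Regulators and stress genes under ATF4 were lower with PHA in 18 of 23 cases and higher in 1, Eif2ak3, with a median of −0.77. Atf4 itself differed by −0.84 ± 0.07, and Ddit3, which encodes the stress factor CHOP, by −0.81 ± 0.08. Chac1, whose product breaks down glutathione, read 7.25, 7.15 and 7.16 with DMSO, 6.59, 6.78 and 6.40 with PHA and 9.04, 9.20 and 9.16 with ICG. It moved to opposite sides of DMSO, by −0.59 with PHA and 1.95 with ICG, both called. Trib3, a pseudokinase that feeds back on ATF4, read 8.28, 8.09 and 8.08 with PHA, level with DMSO, and 10.25, 10.24 and 10.10 with ICG (−2.05 ± 0.08). Stc2, a secreted glycoprotein gene, was the same in all 3 PHA arrays at 7.38, below DMSO (8.33, 8.23 and 8.23), and 8.94, 9.09 and 8.86 with ICG (−1.58 ± 0.07). The chaperones of the endoplasmic reticulum did not move with this group. Of 21 measured, 10 were higher with PHA and 3 lower, led by Pdia4, a disulphide isomerase gene (1.07 ± 0.10), and the chaperone Hspa5 differed by −0.03. Without PHA replicate 1 or 3 the number higher was 4, without ICG replicate 1 or 2 it was 5, and on all 15 arrays it was 3. The number lower was 1 without PHA replicate 2, PHA replicate 3 or ICG replicate 2. On all 15 arrays the counts lower with PHA were 13 for the ATF4 list, 8 for the transporters, 12 for the synthetases and 10 for the synthesis enzymes, and the call of Ddit3 was lost.

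**Figure D2:**
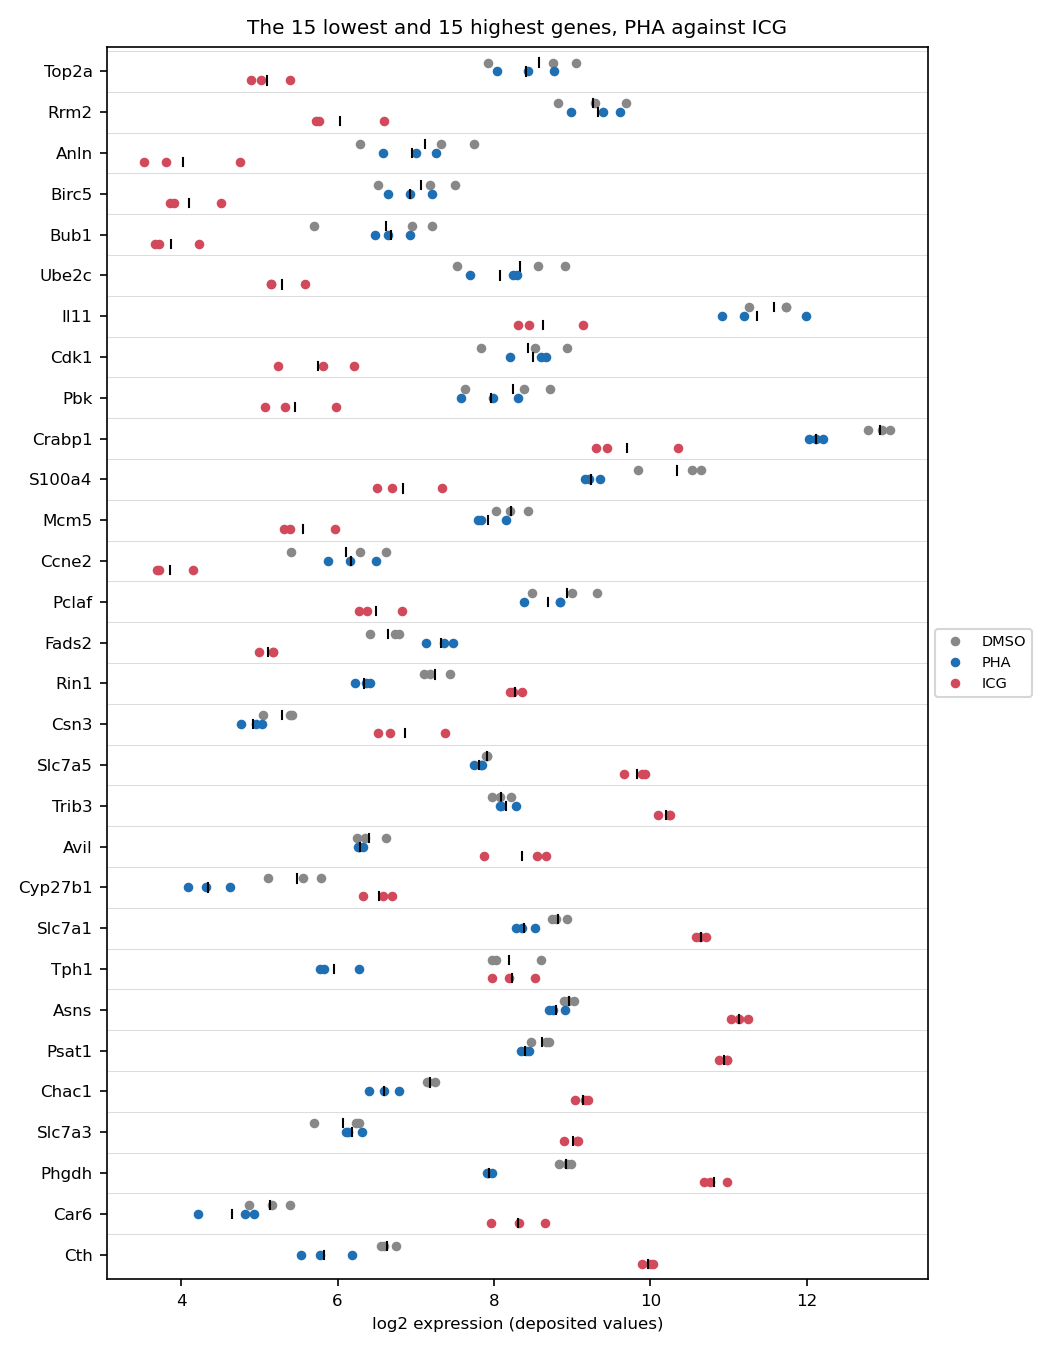
Deposited log2 expression of the 15 genes most raised and the 15 most lowered with PHA against ICG. Each point is 1 array (grey DMSO, blue PHA, red ICG; n = 3 each) and the black tick is the group mean. In the upper genes, mostly of cell division, red points lie to the left and blue points overlap grey, except for Crabp1, S100a4 and Fads2; in the lower genes red points lie to the right, and for Tph1 red lies with grey and blue to the left.

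Genes of cell division formed the opposite pole: ICG lowered most of them and PHA few. DNA replication genes are switched on at the start of S phase by E2F factors, and mitotic genes later by the MuvB complex, which reads a cell cycle homology region with the letters TTTGAA. The promoters of 2 genes are printed to show these letters in strongly separated genes that hold them, from the same RefSeq windows. Mcm5 encodes a subunit of the replicative helicase (chr8:75109259-75109558, plus strand, E2F letters TTTGGCGC or TTTCGCGC in capitals), and Top2a encodes topoisomerase II alpha (chr11:99024140-99024439, minus strand, TTTGAA or its complement in capitals).
Mcm5: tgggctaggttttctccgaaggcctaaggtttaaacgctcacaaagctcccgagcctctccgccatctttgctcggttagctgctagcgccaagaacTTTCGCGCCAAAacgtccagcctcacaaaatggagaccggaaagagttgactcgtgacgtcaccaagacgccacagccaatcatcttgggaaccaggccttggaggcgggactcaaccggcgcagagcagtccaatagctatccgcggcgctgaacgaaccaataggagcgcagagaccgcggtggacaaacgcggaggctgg
Top2a: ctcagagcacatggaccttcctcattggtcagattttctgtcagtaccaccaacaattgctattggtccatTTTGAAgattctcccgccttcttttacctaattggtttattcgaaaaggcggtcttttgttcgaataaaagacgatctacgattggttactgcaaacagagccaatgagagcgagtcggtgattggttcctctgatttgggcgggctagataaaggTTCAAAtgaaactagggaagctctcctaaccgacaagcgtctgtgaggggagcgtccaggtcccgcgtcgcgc
In Mcm5 the first of 2 overlapping matches begins at position −153 from the start site, and in Top2a the first of 2 matches begins at −179. One of the E2F strings was in 11 of 38 windows of the replication list (28.9%) and in 267 of all 32851 windows (0.813%), on either strand. TTTGAA, a short string, was in 29 of 35 windows of the mitosis list (82.9%) and in 5878 of all windows (17.9%).

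Of 41 mitosis genes, 33 were higher with PHA than with ICG and none lower, with a median of 0.95. The PHA and ICG arrays did not overlap for 36 of the 41, against 41.7% of all genes. Top2a read 7.93, 8.75 and 9.05 with DMSO, 8.77, 8.43 and 8.04 with PHA and 5.39, 5.02 and 4.89 with ICG. The PHA arrays fell within the range of DMSO, and every ICG array lay below it, so that PHA exceeded ICG by 3.31 ± 0.27 or 9.91-fold (adjusted p = 2.49e-05). Birc5, which encodes the passenger protein survivin, read 7.21, 6.92 and 6.64 with PHA and 4.51, 3.86 and 3.91 with ICG (2.83 ± 0.25). With ICG both genes lay well below the median level of those arrays (6.90 to 6.91), so their differences rest partly on low values. Cdk1, the kinase that starts mitosis, differed by 2.74 ± 0.29, the checkpoint kinase gene Bub1 by 2.81 ± 0.33 and the cytokinesis gene Anln by 2.92 ± 0.39. Not every division gene followed: Foxm1, a transcription factor of mitotic genes, differed by −0.07 and was not called. Mki67, which encodes the Ki-67 antigen, read 8.81, 8.59 and 8.04 with PHA and 7.94, 7.48 and 7.77 with ICG, a difference of 0.75 ± 0.32 that was not called (adjusted p = 0.123; 95% interval 0.02 to 1.47). Without DMSO replicate 1, which adds to the spread, its adjusted p was 0.0151.

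In the replication list 32 of 40 genes were higher with PHA and 1 lower, with a median of 0.66. Rrm2, the regulated subunit of ribonucleotide reductase, read 9.61, 9.40 and 8.98 with PHA against 6.59, 5.76 and 5.73 with ICG (3.30 ± 0.27). Mcm5 read 8.16, 7.84 and 7.79 against 5.97, 5.39 and 5.32 (2.37 ± 0.18), and Ccne2, which encodes cyclin E2, differed by 2.32 ± 0.28. In each of these genes the DMSO mean lay within 0.31 of the PHA mean (differences from DMSO of 0.06, −0.30 and 0.07). The exception was the licensing factor gene Cdt1 (−0.37), which PHA lowered by 0.45. Homologous recombination and repair genes followed with 16 of 23 higher and none lower, among them the nuclease gene Exo1 (1.61 ± 0.14), the checkpoint gene Clspn (1.47 ± 0.16) and Brca1 (0.83 ± 0.09). Against DMSO, ICG lowered 34 mitosis, 32 replication and 14 repair genes and raised none of them. PHA raised none, lowered 6 replication and 3 repair genes, and changed none of the mitosis list, for which 41 genes had a median of −0.05. The mitosis list averaged 6.30 on DMSO replicate 1 against 6.84 and 7.12 on the other DMSO arrays. Without that array its median with PHA against DMSO was −0.30, still with no call, and ICG lowered 37 of 41. The 15-array fit called 27 mitosis, 24 replication and 7 repair genes higher with PHA than with ICG. A filter on low values left 30 mitosis, 38 replication and 14 repair genes, of which 23, 31 and 11 were higher with PHA.

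**Figure D3:**
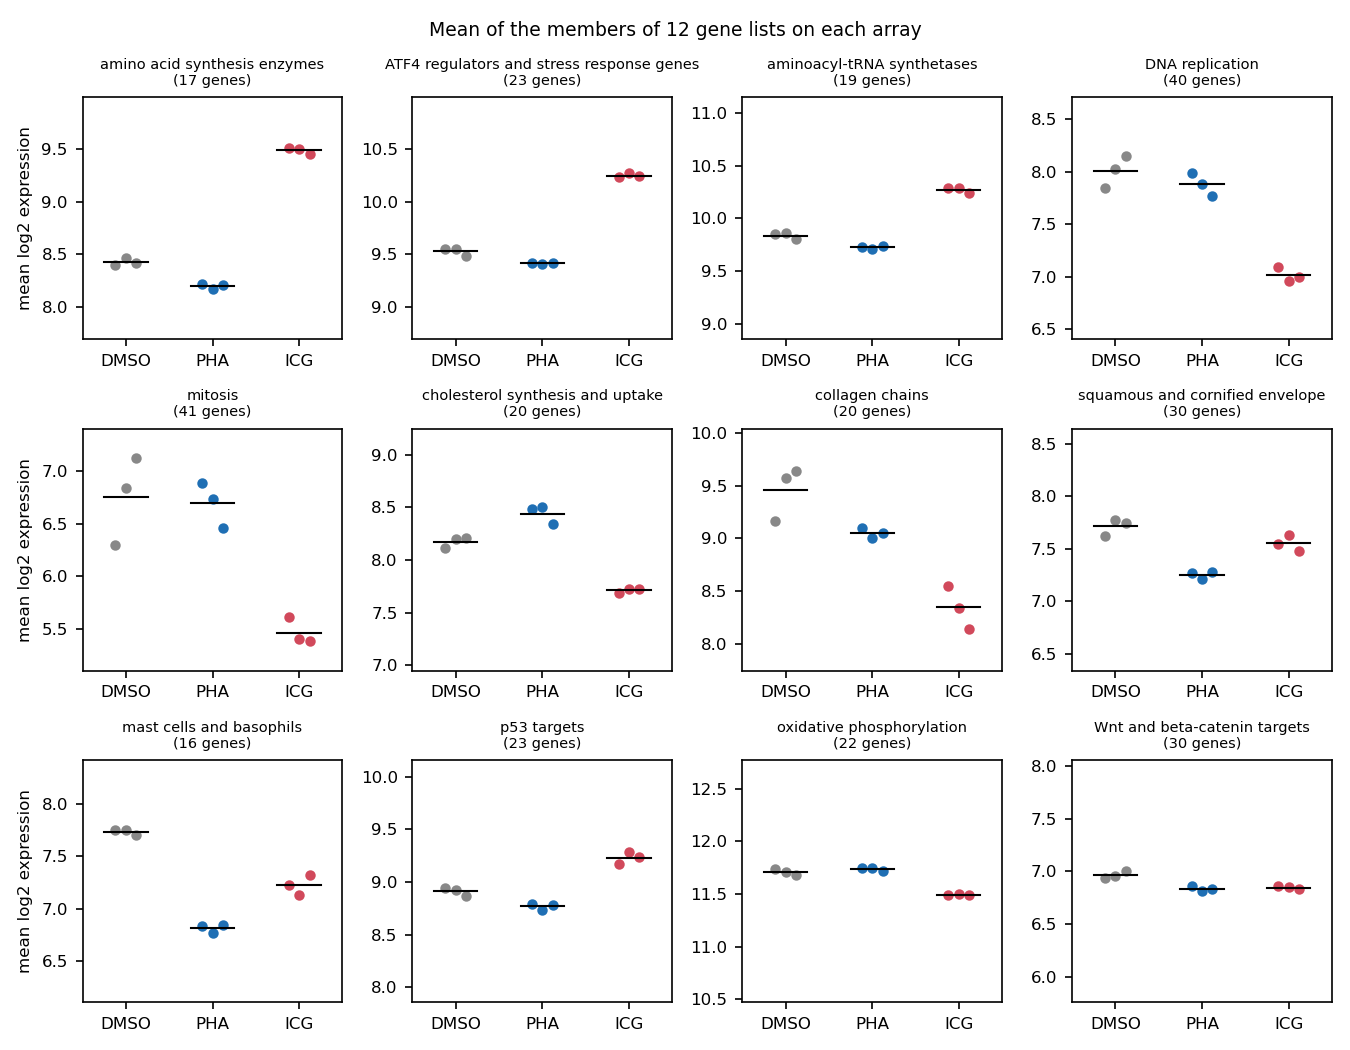
Mean deposited log2 level of the members of 12 gene lists on each array, with a line at each group mean. Each panel has its own level and the same height in log2 units, so that distances can be compared between panels and levels cannot. The ICG arrays stand apart upward in the amino acid, ATF4, synthetase and p53 panels and downward in the replication, mitosis, cholesterol, collagen and oxidative phosphorylation panels. The PHA arrays stand above DMSO in the cholesterol panel and below it in the amino acid, ATF4, synthetase, p53 and collagen panels. In the squamous panel PHA stands lowest and ICG overlaps DMSO. In the mast cell panel PHA stands lowest and ICG lies between PHA and DMSO. The Wnt panel shows little separation.

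Several genes of lipid synthesis rose with PHA and fell with ICG against DMSO. Sterol regulatory factors (SREBPs) switch on the enzymes that build cholesterol and unsaturated fatty acids when cell sterols run low. Of 20 genes of cholesterol synthesis and uptake, 16 were higher with PHA than with ICG and none lower, with a median of 0.66. Against DMSO, PHA raised 7 and lowered none, and ICG lowered 13 and raised none. Idi1, which makes an isoprenoid building block, read 7.39, 7.59 and 7.56 with DMSO, 8.29, 8.34 and 7.97 with PHA and 6.39, 6.50 and 6.40 with ICG. The groups did not overlap, with changes from DMSO of 0.69 and −1.08, both called, and a difference between the inhibitors of 1.77 ± 0.10 (adjusted p = 3.74e-06). Cyp51, which demethylates lanosterol, read 8.07, 8.25 and 7.95 with PHA and 6.89, 6.66 and 6.48 with ICG (1.41 ± 0.15). Tm7sf2, a sterol reductase gene, read 7.65, 7.75 and 7.44 against 6.17, 5.99 and 6.50 (1.39 ± 0.13). For both genes each inhibitor's change from DMSO was called, 0.77 and −0.64 for Cyp51 and 0.80 and −0.59 for Tm7sf2. Other steps moved with 1 inhibitor: Sqle, an early rate-limiting oxygenase, rose by 0.67 with PHA and read −0.03 with ICG, and Fdft1, squalene synthase, read 0.02 with PHA and fell by 1.23 with ICG. The letters TCACNCCAC, a form of the sterol regulatory element, were in 1 of 19 windows of the list (5.26%), that of Hmgcs1, and in 408 of all 32851 windows (1.24%). Hmgcs1 differed by 0.13 and was not called.

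In the fatty acid list 11 of 20 genes were higher with PHA and none lower, with a median of 0.26. Fads2, the delta-6 desaturase gene, gave the largest difference here. It read 7.36, 7.47 and 7.13 with PHA, 6.41, 6.78 and 6.74 with DMSO and 4.99, 5.18 and 5.17 with ICG, a difference of 2.20 ± 0.12 (4.61-fold). The elongase gene Elovl6 differed by 1.26 ± 0.12. Scd1, the main stearoyl-CoA desaturase gene, rose by 0.88 with PHA and read −0.23 with ICG, not called, and differed between them by 1.11 ± 0.22. Acss2, which activates acetate, rose with both inhibitors, by 0.78 with PHA and 0.53 with ICG. With all 15 arrays fitted, 12 cholesterol and 6 fatty acid genes were higher with PHA.

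**Figure D4:**
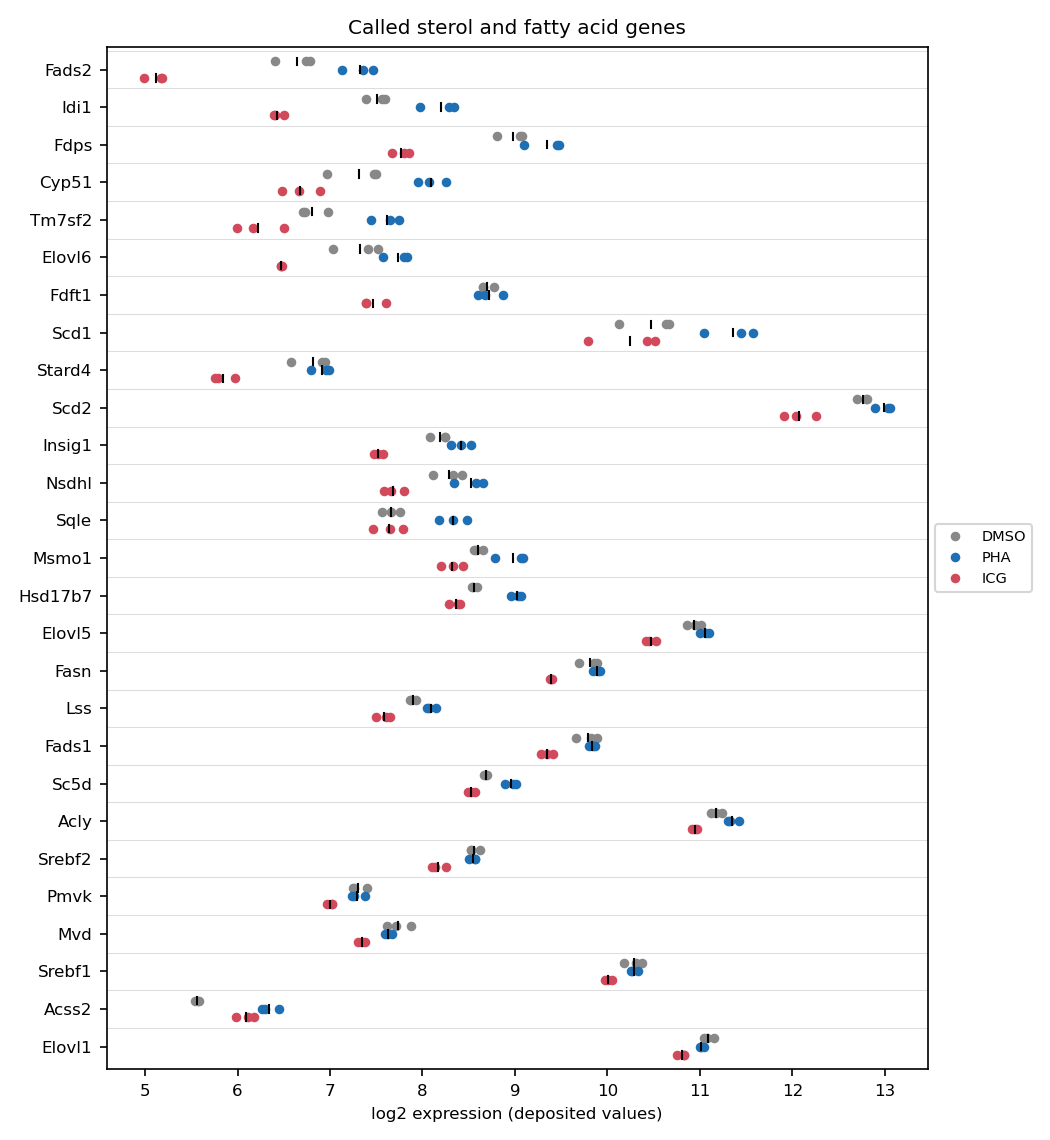
Deposited log2 expression of the sterol and fatty acid genes called between PHA and ICG, ordered by their difference. Each point is 1 array (grey DMSO, blue PHA, red ICG; n = 3 each) and the black tick is the group mean. For Fads2, Idi1, Cyp51 and Tm7sf2 the blue points lie above and the red points below grey; for Acss2 both lie above grey.

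Many stromal matrix and fibroblast marker genes were below DMSO with both inhibitors, in comparisons that share the DMSO arrays. Which cells of the spheres made these RNAs was not tested. Many collagens were lower with ICG than with PHA. Fibroblasts make most of the collagen chains. Of 20 chains, 14 were higher with PHA than with ICG and none lower, with a median of 0.81. Col1a1 read 8.31, 9.21 and 9.49 with DMSO, 8.46, 8.35 and 8.20 with PHA and 7.12, 6.50 and 6.47 with ICG. The ICG arrays lay below all others and the PHA arrays overlapped DMSO replicate 1 alone, with a difference between the inhibitors of 1.64 ± 0.27 (adjusted p = 0.00138). Col12a1 had a tighter spread, 8.49, 8.44 and 8.39 with PHA, 7.47, 7.43 and 7.43 with ICG and 9.00 to 9.14 with DMSO (1.00 ± 0.06). S100a4, a calcium-binding protein gene of motile fibroblasts and other cells, read 9.84, 10.65 and 10.53 with DMSO, 9.16, 9.22 and 9.36 with PHA and 7.33, 6.50 and 6.69 with ICG (2.41 ± 0.23). It fell with both, by 1.09 with PHA and 3.50 with ICG. Of 25 stromal matrix and fibroblast markers, 9 were higher with PHA, 3 lower and 13 were not called, with a median of 0.16. Against DMSO, 14 of them fell with PHA and 19 with ICG, and none rose. Pdgfrb, a receptor of fibroblasts and pericytes, differed by 1.63 ± 0.21. Mfap5, a microfibril gene, went the other way (−1.40 ± 0.10), having fallen by 2.03 with PHA and 0.63 with ICG. Postn, which encodes the matrix protein periostin, fell by 2.33 with PHA and 2.34 with ICG and differed by 0.01. Without DMSO replicate 1, 7 collagens fell with PHA where 5 fell with it, and 16 fell with ICG in either case. The 15-array fit called 8 collagens higher with PHA than with ICG, and did not call Col12a1.

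Proteases that cut the matrix divided gene by gene, with 4 of 22 higher and 4 lower with PHA. This was 36.4% called, against 27.1% of all genes. Mmp13, a collagenase, read 12.97, 12.93 and 13.00 with DMSO, 12.21, 12.28 and 12.26 with PHA and 13.51, 13.63 and 13.37 with ICG. It moved to opposite sides of DMSO and differed by −1.25 ± 0.07. Plat, tissue plasminogen activator, differed by 1.78 ± 0.31, and Timp1, a protease inhibitor gene that PHA raised by 0.70, by 1.02 ± 0.13. Mmp1a and Mmp10 fell with both inhibitors, by 2.92 and 1.71 with PHA and by 2.59 and 1.93 with ICG, and their differences of −0.33 and 0.22 were not called. With all 15 arrays fitted, 4 proteases were higher and 1 lower with PHA, and the call of Mmp13 was lost.

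Markers of immune cells separated the inhibitors in both directions. Of 22 macrophage and leukocyte genes, 8 were higher with PHA and 1 lower, with a median of 0.18. The share called was 40.9%, against 27.1% of all genes. No member of the list was lower after quantile normalization, with either other choice of probe set, with the replicate block or without any single DMSO array. C1qb, a complement gene of tissue macrophages, differed by 1.92 ± 0.32, and the chemokine gene Ccl12 by 1.89 ± 0.27. Mrc1, the mannose receptor gene, read 9.84, 10.92 and 11.07 with DMSO, 9.58, 9.42 and 9.14 with PHA and 8.52, 8.62 and 7.68 with ICG (1.10 ± 0.32, adjusted p = 0.0285). Both inhibitors lay below DMSO and ICG below PHA. The calls of Mrc1 and C1qc were lost without PHA replicate 1, PHA replicate 2 or ICG replicate 3 and on all 15 arrays, and that of C1qc also without PHA replicate 3. Without PHA replicate 1, 5 of the list were higher, and on all 15 arrays 2. The pan-leukocyte gene Ptprc differed by −0.11 and the macrophage genes Cd68 and Csf1r by 0.04 and 0.07, none of them called. The whole list averaged 9.52 to 9.62 on the PHA arrays, 8.97 to 9.21 with ICG and 9.75 to 10.05 with DMSO, and the part of cell numbers in this was not tested.

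Mast cell and basophil genes leaned the other way: 8 of 16 were lower with PHA than with ICG and 3 higher, with a median of −0.27. Differences in the list ran from −2.27 to 0.85. Without PHA replicate 3 the number higher was 1. Against DMSO, 10 fell with PHA and 9 with ICG, with medians of −0.90 and −0.30. Fcer1a, which encodes the IgE-binding chain of the mast cell receptor, fell by 2.90 with PHA and 1.18 with ICG (−1.72 ± 0.14). The mast cell protease genes Cma1 and Tpsb2 differed by −0.92 ± 0.08 and −0.91 ± 0.12. Kit, the receptor of stem cell factor, read 6.89, 6.95 and 7.18 with PHA, and 7.84, 7.73 and 8.13 with ICG, level with DMSO at 8.09, 7.69 and 7.87 (−0.89 ± 0.13). Tph1, the tryptophan hydroxylase that starts serotonin synthesis, read 6.27, 5.82 and 5.77 with PHA against 7.98, 8.19 and 8.52 with ICG and 8.60, 8.02 and 7.97 with DMSO (−2.27 ± 0.20). Kit and Tph1 are also made by mammary epithelial cells, so neither marks mast cells alone. Mcpt8, a basophil protease gene, fell by 2.19 with PHA and 2.33 with ICG, and its difference of 0.13 was not called. Over the 16 genes the mean was 6.77 to 6.85 with PHA, 7.13 to 7.32 with ICG and 7.70 to 7.75 with DMSO. In the 15-array fit 4 of the list were lower with PHA, and the call of Kit was lost. Of 16 endothelial genes, 1 was higher and 2 were lower with PHA, or 18.8% called against 27.1% of all genes. The 1 higher was not called without PHA replicate 1 or any single ICG array.

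Some epithelial and inflammatory genes were low with PHA alone, while others of the same lists also moved with ICG. Krt17, a keratin of basal and stressed epithelium, read 8.17, 8.09 and 7.95 with PHA against 9.65, 9.86 and 9.46 with ICG and 9.45, 9.87 and 9.75 with DMSO. The ICG arrays overlapped DMSO and the PHA arrays lay below both (−1.59 ± 0.13, adjusted p = 2.09e-05). Krt7, a keratin of simple epithelium, read 8.70, 8.70 and 8.65 with PHA and 9.96, 10.11 and 9.85 with ICG (−1.29 ± 0.08). Of 30 genes of squamous differentiation and the cornified envelope, 11 were lower with PHA and 1 higher, with a median of −0.25. The share called was 40%, against 27.1% of all genes. Against DMSO 17 of the list fell with PHA and 6 with ICG, beside 7.07% and 15% of all genes. Sprr1a, a cornified envelope precursor, read 8.93, 8.72 and 9.03 with PHA and 10.11, 10.19 and 9.76 with ICG (−1.13 ± 0.22), and Krt16 differed by −0.81 ± 0.15. Other epithelial genes differed gene by gene: in the basal list 6 of 22 were lower and 2 higher, and in the luminal list 4 of 22 were lower and 4 higher. Each of these lists had 36.4% called, against 27.1% of all genes. The number of luminal genes higher was 2 without any single PHA array or ICG replicate 3, and that of basal genes was 0 without PHA replicate 1 or ICG replicate 3 and 1 without PHA replicate 2, PHA replicate 3 or ICG replicate 2. The basal keratin genes Krt14 (−0.35 ± 0.10) and Krt5 (−0.27 ± 0.11, not called) fell with both inhibitors against DMSO, by 0.70 and 0.65 with PHA and 0.35 and 0.38 with ICG. The luminal keratin genes Krt8 and Krt18 were higher with PHA, by 0.44 ± 0.07 and 0.26 ± 0.07. The call of Krt14 was lost without PHA replicate 2 or 3 or ICG replicate 1 or 2, and that of Krt18 without any single PHA array or ICG replicate 3. In the 15-array fit 1 squamous gene, 3 basal genes and 1 luminal gene were lower with PHA, and the calls of Sprr1a, Krt16, Krt14, Krt8 and Krt18 were lost.

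Inflammatory genes gave 10 of 27 lower with PHA and 1 higher, with a median of −0.16. The share called was 40.7%, against 27.1% of all genes. Against DMSO, PHA raised 3 and lowered 8 of the list, beside 3.14% and 7.07% of all genes. ICG raised 7 and lowered 3 of the list, beside 11.9% and 15% of all genes. Cxcl5, a neutrophil chemokine, read 9.70, 9.40 and 10.57 with PHA, 11.55, 11.08 and 11.57 with ICG and 11.48, 11.29 and 10.77 with DMSO (−1.51 ± 0.28). Csf2, which encodes GM-CSF, read 5.67, 5.62 and 5.54 with PHA and 6.75, 6.64 and 6.71 with ICG (−1.09 ± 0.11), and the adhesion molecule gene Vcam1 differed by −1.07 ± 0.11. For these 3 genes ICG read within 0.22 of DMSO and was not called, and PHA fell by 1.29, 1.08 and 1.00. Il33, an alarmin, differed as much (−1.14 ± 0.14), but through a rise of 1.18 with ICG, and PHA gave 0.04, not called. Il11, a cytokine of the IL-6 family, was among the genes highest with PHA. It read 11.20, 10.92 and 11.99 with PHA, 11.74, 11.74 and 11.26 with DMSO and 9.14, 8.31 and 8.45 with ICG (2.74 ± 0.28). Fitted on all 15 arrays, 4 inflammatory genes were lower with PHA, and the call of Cxcl5 was lost.

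Among genes of the pathways the inhibitors are named for, many of the ERK and MET list were lower with PHA, and the share of Wnt targets called was near that of all genes. Of 27 genes of the ERK and MET list, 13 were lower with PHA than with ICG and 2 higher, with a median of −0.22. Against DMSO PHA lowered 10 and raised 1, beside 7.07% and 3.14% of all genes. ICG raised 6 and lowered 4, beside 11.9% and 15% of all genes. Without DMSO replicate 1, ICG raised 8 and lowered 2. Grb10, an adaptor of receptor kinases, read 9.76, 9.73 and 9.82 with DMSO, 9.30, 9.11 and 9.14 with PHA and 10.16, 10.30 and 10.35 with ICG, on opposite sides of DMSO (−1.08 ± 0.07). Ptgs2, which encodes COX-2, differed by −0.92 ± 0.16, Maff by −0.92 ± 0.09 and the ERK phosphatase gene Dusp5 by −0.52 ± 0.10, which ICG raised by 0.49 and PHA left at −0.03, not called. Dusp6, a classical feedback phosphatase of ERK, read 11.94, 11.96 and 11.96 with PHA and 11.68, 11.89 and 11.85 with ICG. Its difference of 0.14 was not called, with a 95% interval of −0.02 to 0.31. Etv5 differed by 0.18 (interval 0.04 to 0.33, adjusted p = 0.0671). Etv4 differed by −0.34 ± 0.07, and its second probe set gave the other sign. Met itself differed by −0.22 ± 0.07 (adjusted p = 0.0351), and had fallen by 0.35 with PHA. That call was lost without PHA replicate 1 or 3, ICG replicate 2 or 3, or on all 15 arrays. Hgf differed by −0.12, with an interval of −0.42 to 0.19, and 2 of its 3 probe sets gave the other sign, 1 of them called. With the probe set of largest variance for each gene 8 of the ERK and MET list were lower and 5 higher, and on all 15 arrays 2 were lower, without calls for Ptgs2, Dusp5 and Etv4.

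In the Wnt list 3 of 30 genes were higher with PHA and 4 lower, or 23.3% called against 27.1% of all genes, with a median of 0.00. Axin2, the most general β-catenin target and a feedback inhibitor, read 6.77, 6.89 and 6.80 with PHA, 6.66, 6.67 and 6.72 with ICG and 6.77, 6.83 and 6.96 with DMSO. Its difference of 0.14 ± 0.07 was not called, with a 95% interval of −0.01 to 0.29. Lgr5 and Nkd1 differed by −0.13 and 0.02, and Ccnd1, the cyclin D1 gene, by −0.25 (interval −0.50 to 0.00). The called members moved in different directions. Myc, which encodes a growth-promoting transcription factor, read 9.89, 9.73 and 9.72 with DMSO, 9.32, 9.34 and 9.34 with PHA and 10.05, 10.20 and 10.47 with ICG. It fell with PHA and rose with ICG, by 0.44 and 0.46, and differed by −0.91 ± 0.10. The Notch ligand gene Jag1 differed by −0.84 ± 0.09 and was lowest with PHA, and Ccn4 differed by 0.75 ± 0.17 and was lowest with ICG. Ctnnb1, the β-catenin gene, differed by −0.26 ± 0.05, although 1 of its 3 probe sets gave the other sign. In the CXCL12 axis, which recruits and guides cells, ligand and receptors went opposite ways. Of 15 genes listed with HGF, 3 were higher and 5 lower with PHA (0 and 2 in the 15-array fit). The share called was 53.3%, against 27.1% of all genes. The number higher was 1 without PHA replicate 1, PHA replicate 3 or ICG replicate 3. Cxcl12 read 7.30, 7.16 and 6.93 with PHA and 6.04, 5.71 and 5.49 with ICG (1.38 ± 0.20), although 1 of its 3 probe sets gave the other sign. Its receptor gene Cxcr4 read 10.12, 9.84 and 10.05 with PHA and 10.80, 10.91 and 10.96 with ICG (−0.89 ± 0.08), and Ackr3, its scavenger receptor gene, differed by −0.79 ± 0.10. The 15-array fit lost the calls of Jag1, Ctnnb1, Cxcl12 and Cxcr4.

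Targets of p53, which halts division and repairs or removes damaged cells, were lower with PHA in 17 of 23 cases and higher in 1, with a median of −0.46. Gadd45a, a stress gene that arrests growth, differed by −1.27 ± 0.10 and the metabolic stress gene Sesn2 by −1.13 ± 0.09. Both are also induced by ATF4, and Sesn2 stands in both lists. Cdkn1a, which encodes the cell cycle inhibitor p21, read 12.16, 12.14 and 12.08 with DMSO, 11.79, 11.76 and 11.86 with PHA and 12.41, 12.50 and 12.46 with ICG. The groups did not overlap, and it differed by −0.65 ± 0.06. On all 15 arrays 9 of the 23 were lower. Targets of the oxidant sensor NRF2 were lower with PHA in 11 of 22 cases and higher in 3. They included Gclm for glutathione synthesis (−0.63 ± 0.13) and Txnrd1, thioredoxin reductase (−0.60 ± 0.09), while Gsta4, a glutathione transferase gene, was higher with PHA (1.89 ± 0.10). Fitted on all 15 arrays, 7 NRF2 targets were lower with PHA. Sqstm1, the autophagy receptor p62, was raised by ICG and differed by −1.42 ± 0.08. Of 22 oxidative phosphorylation genes, 14 were higher with PHA and 1 lower, with a median of 0.27, led by Uqcrfs1 of complex III (0.78 ± 0.05) and Cox4i1 of complex IV (0.62 ± 0.05). ICG lowered 14 of them and raised 2, and PHA changed none. Without DMSO replicate 1, ICG lowered 12 and raised none, and PHA raised 1. On all 15 arrays 5 were higher with PHA. Ndrg1, a stress and hypoxia gene, was on opposite sides of DMSO, at 9.92, 9.81 and 9.89 with PHA and 11.28, 11.36 and 11.41 with ICG (−1.48 ± 0.07).

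Immediate early genes encode transcription factors that respond within minutes to growth factor signals, and 8 of 22 were lower with PHA and none higher. The share called was 36.4%, against 27.1% of all genes. Klf4, a factor of epithelial differentiation, read 9.87, 9.79 and 9.76 with PHA and 10.78, 10.84 and 10.83 with ICG (−1.01 ± 0.06), and Klf10 differed by −0.98 ± 0.09. In the 15-array fit 4 were lower. Egr1 was raised by both inhibitors. It read 10.25, 10.22 and 10.33 with DMSO, 11.29, 11.25 and 11.33 with PHA and 10.96, 11.26 and 11.19 with ICG, and its difference of 0.15 was not called (95% interval −0.03 to 0.33). Arg1, the arginase gene, was lowered by both. It read 9.00, 9.64 and 9.99 with DMSO, 6.66, 6.44 and 5.98 with PHA and 6.56, 6.26 and 5.54 with ICG. The inhibitors overlapped each other and lay far below DMSO, with a difference of 0.24 (95% interval −0.42 to 0.90, adjusted p = 0.623). Neither interval shows that the inhibitors act alike on these genes, and the changes from DMSO with both inhibitors rest on the same DMSO arrays. Without ICG replicate 3 the difference of Arg1 was −0.05. The lists of lysosome and autophagy, MYC and ribosome biogenesis, glycolysis and interferon genes held called members in both directions, 4 and 7, 4 and 8, 8 and 7, and 4 and 7 higher and lower with PHA. The shares of these lists called were 45.8%, 46.2%, 60% and 42.3%, against 27.1% of all genes. On all 15 arrays the counts were 1 and 2, 1 and 1, 2 and 1, and 1 and 0. That fit called 793 higher and 670 lower of all 18193 genes. In the MYC list the number lower was 5 without any single PHA array and 4 without ICG replicate 2 or 3, and in the lysosome list it was 4 without PHA replicate 3. The number higher fell to 2 in the lysosome list without PHA replicate 2, PHA replicate 3 or ICG replicate 1, and in the interferon list without PHA replicate 2, PHA replicate 3 or ICG replicate 3. Mesenchymal transition factors gave 5 and 8 of 20, milk protein genes 1 and 4 of 22, and adipocyte genes 1 and 5 of 12. On all 15 arrays these were 3 and 4, 0 and 2, and 1 and 0. In the main fit the shares called were 65%, 22.7% and 50%, against 27.1% of all genes. In the milk list the carbonic anhydrase gene Car6 read 4.93, 4.81 and 4.22 with PHA and 8.32, 8.65 and 7.96 with ICG (−3.66 ± 0.22), the second largest difference of all genes. Its PHA values lay well below the median level of those arrays (6.91 to 6.92). The κ-casein gene Csn3 differed by −1.94 ± 0.20, and the β-casein gene Csn2 by −0.37, not called. The call of Csn3 was lost in the 15-array fit.

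Several other genes stood among the extremes without belonging to a list. Cyp27b1, which makes the active form of vitamin D, read 4.32, 4.09 and 4.62 with PHA, 5.79, 5.56 and 5.11 with DMSO and 6.32, 6.58 and 6.70 with ICG (−2.19 ± 0.18). Rin1, a RAS effector gene, followed the same order, at 6.42, 6.22 and 6.36 with PHA, 7.44, 7.18 and 7.10 with DMSO and 8.36, 8.25 and 8.21 with ICG (−1.94 ± 0.10). Avil, which encodes an actin-binding protein, was raised by ICG (−2.08 ± 0.18). Crabp1, a retinoic acid binding protein gene, read 12.12, 12.03 and 12.21 with PHA and 10.35, 9.30 and 9.45 with ICG, both below DMSO at 12.79, 13.07 and 12.96 (2.42 ± 0.22). For each of these 4 genes the PHA and ICG arrays did not overlap. Probe sets of 1 gene did not always give 1 sign: 1 of 3 probe sets of Mcm5, Elovl6, Krt14, Grb10 and Etv5, 1 of 4 of Col12a1 and 1 of 2 of Kit differed the other way, none of them called. The uncalled genes named above, and Oat, Eif2ak3, Cdt1, Sqle and Acss2, were picked after their values were seen, except those on the list of genes given whatever their values.

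In the second set the combination PHA+ICG stood beside its own DMSO arrays, and is given without a test against the single inhibitors, since the sets may have been processed apart. The amino acid synthesis enzymes averaged 9.12, 9.52 and 9.52 with DMSO and 10.08, 9.88 and 10.02 with the combination. The mitosis genes averaged 7.65, 7.79 and 7.75 with DMSO and 6.19, 6.80 and 6.78 with the combination. The cholesterol genes averaged 9.88, 10.01 and 9.99 with DMSO and 8.98, 8.74 and 8.94 with the combination. In all 3 lists the combination arrays lay on the side of DMSO on which the ICG arrays lay in the first set, and did not overlap their own DMSO arrays. These lists were picked and do not stand for all 34. The p53 targets, higher on the ICG arrays than with DMSO in the first set, overlapped in the second. They averaged 9.17, 9.09 and 9.14 with DMSO and 9.69, 9.10 and 9.33 with the combination.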

How the data were processed

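RNA from 15 Affymetrix mouse arrays was deposited by the authors as log2 values per probe set. The submitters' processing notes name RMA and MAS5, without versions, and whether both sets were normalized together is not given in the sources used here. Of 45101 probe sets, 34945 had 1 gene symbol, 932 had several and 9160 none, and 64 were controls. Each of the 18193 genes was read from its brightest probe set (by the mean of 15 arrays), and 9010 had several. Group means of the 9 first-set arrays were fitted with limma 3.58.1 in R 4.3.3 (6 residual and 3.98 prior degrees of freedom), with Benjamini-Hochberg adjustment over all genes and a threshold of 0.05. Genes were named by rule: the 15 highest and 15 lowest called genes without overlap between arrays, up to 6 called members of each list with at least 3 called, and a set of pathway and marker genes whatever their values. The 34 lists (783 of 835 members measured) and these genes were chosen with earlier results of these data known. Tested on simulated data for PHA against ICG, with 200 of 18193 genes changed, the fit recovered 56% of changes of 0.5 and 99% of changes of 1 or of 2 on the log2 scale. The share of its calls that were false was 5.88%, 4.81% and 3.41% for changes of 0.5, 1 and 2. The simulated noise was independent between genes, and far fewer genes changed than the 4939 called in the data. These shares therefore do not measure the recovery in the data. Alternatives were other scalings, probe-set choices, a filter on low values, other arrays in the fit, another spread estimate, the replicate number as a block and leaving out each array.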

Additional observations from a re-analysis of the deposited data

How the results depend on the processing

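The count of genes called between PHA and ICG, 4939, lay between 4281 and 5451 under the alternatives tried on the first set that kept all PHA and ICG arrays (4763 to 5087 without 1 DMSO array). It lay between 3922 and 4399 without 1 of the PHA or ICG arrays. With all 15 arrays in the fit it was 1463, and the counts against DMSO were 182 for PHA and 1255 for ICG. Leaving out each array in turn gave 1005 to 1691 genes for PHA against DMSO and 3696 to 4756 for ICG against DMSO; leaving out DMSO arrays for PHA against ICG, and for lists against DMSO, was chosen after seeing the data. With the replicate number as a block the counts were 4281 for PHA against ICG, 1202 for PHA against DMSO and 4149 for ICG against DMSO. Same-numbered arrays correlated at −0.26 to 0.12 in their deviations, so the numbers were not taken to pair the samples. Of 220 named genes, 72 lost their call on all 15 arrays and 6 with the block. The direction turned for Hgf (0.23 with the mean of its probe sets and 0.53 with the most variable), Etv4 (0.07) and Etv5 (−0.05) with the most variable probe set, and Arg1 without ICG replicate 3 (−0.05, in a range of −0.05 to 0.46 over the arrays left out). The cause was not tested, beyond the choice of probe set itself. There were 3 arrays in each group, so small differences can be missed.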
